A study of Mus musculus with 25 samples.

Results

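The 10 genes described here encode chains of the molecules that show peptides to T cells, or proteins that serve these molecules or switch on their genes. They are the listed MHC class II genes H2-Aa, H2-Ab1, H2-Eb1, Cd74 and Ciita and the listed MHC class I genes H2-K1, H2-D1, B2m, Tap1 and Nlrc5, which makes 10 of the 56956 genes in the count table. They were chosen by name, and all 10 were among the 13993 genes that passed the filter on low counts, with at least 13 counts for every member in every library. The RNA came from whole sciatic nerve of mice aged 3, 5, 7, 9 or 12 weeks. There were 25 libraries, with 1 library per group and age for 5 groups, and each was made from the pooled nerves of several animals of both sexes. The C3 group was B6.Cg-Tg(PMP22)C3Fbas/J on a C57BL/6J background and WT-C3 was C57BL/6J, while the C22 group was Tg(PMP22)C22Clh on an FVB/NRJ background and WT-C22 was FVB/NRJ. The C3 and C22 mice both carry the human PMP22 gene as a transgene and are models of the neuropathy CMT1A. The remaining group, C3-PMP22 c-JunP0Cre, is called C3_cJunKO here. It carries the C3 transgene and lacks c-Jun in Schwann cells, through a Cre active in these cells, and its background strain is not given. No group was treated.

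A group had no second pool at any age, so its 5 ages served as replicates (n = 5), so that age and the difference between pools both enter each SD and standard error (SE). Levels are given in CPM, the counts of a gene scaled to a common library total, after TMM scaling over all libraries. Human PMP22 had at least 7874 CPM in the 15 transgenic libraries and at most 6.30 CPM in the 10 control libraries, and Jun had 26.4 to 31.8 CPM in C3_cJunKO against 95.1 to 118 CPM in C3. The libraries held 2140142 to 49072746 counts on genes, and the shallowest was the 9-week C3 library. The 9-week C22 library stood apart by its lymphocyte genes. There the 5 B cell markers summed to 23.8 CPM and the 6 T cell markers to 16.5 CPM, where no other library exceeded 3.20 and 3.69 CPM. The Schwann cell marker Sox10 had 378 to 709 CPM and was thus abundant in every library, and the 13 macrophage markers summed to between 249 and 549 CPM.

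MHC class II molecules are pairs of an alpha and a beta chain that carry peptides from endosomes to the surface of macrophages, dendritic cells and B cells, where CD4+ T cells read them. H2-Aa and H2-Ab1 encode the alpha and beta chains of the I-A molecule, H2-Eb1 encodes the beta chain of I-E, Cd74 encodes the invariant chain that fills the groove until a peptide is loaded, and Ciita encodes the coactivator that switches these genes on. MHC class I molecules carry peptides from the cytosol on nearly all cells with a nucleus: H2-K1 and H2-D1 encode heavy chains, B2m the light chain beta-2-microglobulin, Tap1 a subunit of the peptide transporter, and Nlrc5 the coactivator of the class I genes. In nerve, class II is best known from resident macrophages. In whole tissue, fewer cells of a type and less RNA per cell cannot be told apart.

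H2-Aa (ENSMUSG00000036594, chr17:34493404-34506798), H2-Ab1 (ENSMUSG00000073421, chr17:34476663-34488393), H2-Eb1 (ENSMUSG00000060586, chr17:34504236-34535648), H2-K1 (ENSMUSG00000061232, chr17:34214987-34219321), H2-D1 (ENSMUSG00000073411, chr17:35481691-35486475) and Tap1 (ENSMUSG00000037321, chr17:34405996-34416199) lie in the H2 complex of chromosome 17. Cd74 (ENSMUSG00000024610, chr18:60936899-60945731), Ciita (ENSMUSG00000022504, chr16:10297923-10347694), B2m (ENSMUSG00000060802, chr2:121977957-121983594) and Nlrc5 (ENSMUSG00000074151, chr8:95160984-95253900) lie elsewhere. The coordinates refer to GRCm39, to which the reads had been aligned, with gene models of GENCODE M39. In this annotation H2-Aa and H2-Eb1 overlap on opposite strands, and the strand setting of the counting is not given in the sources used here, although the library kit marks strand.

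The C57BL/6J and FVB/NRJ strains carry different H2 haplotypes, and reads of the FVB alleles were aligned to a C57BL/6J genome. H2-Eb1 had 1.77 to 3.33 CPM in the 10 libraries of C22 and WT-C22 and 11.3 to 102 CPM in the libraries of the other groups. Levels of the members were therefore compared only among the C3 lines or among the C22 lines. The background strain of C3_cJunKO is not given, so its comparisons with C3 and WT-C3 are not known to lie within a strain. H2-K1, H2-D1 and the H2-Q and H2-T genes resemble each other closely, and the share of their reads lost or split between copies is not known.

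The class II genes are switched on through short boxes just before their start. The 150 bases upstream of the start of the Ensembl canonical transcript, which can lie inside the span of the whole gene given above, are shown for the class II chain genes of the list, on the coding strand, together with H2-DMa, a gene of the class II loading step that is compared with them further on. Capitals mark the letters TGATTGG, the core of the Y box, and ACNGATGA, part of the X box. The sequences are those of the GRCm39 reference.

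H2-Aa (chr17:34506798-34506947, minus strand): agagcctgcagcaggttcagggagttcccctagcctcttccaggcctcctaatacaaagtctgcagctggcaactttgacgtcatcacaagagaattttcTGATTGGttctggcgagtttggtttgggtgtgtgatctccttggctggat
H2-Ab1 (chr17:34482033-34482182, plus strand): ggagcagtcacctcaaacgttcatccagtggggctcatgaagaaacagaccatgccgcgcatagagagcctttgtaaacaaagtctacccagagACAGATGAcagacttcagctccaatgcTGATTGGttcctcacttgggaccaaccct
H2-Eb1 (chr17:34524663-34524812, plus strand): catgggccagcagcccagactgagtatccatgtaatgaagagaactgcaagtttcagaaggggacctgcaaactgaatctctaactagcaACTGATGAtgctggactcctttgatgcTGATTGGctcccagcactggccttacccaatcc
H2-DMa (chr17:34354410-34354559, plus strand): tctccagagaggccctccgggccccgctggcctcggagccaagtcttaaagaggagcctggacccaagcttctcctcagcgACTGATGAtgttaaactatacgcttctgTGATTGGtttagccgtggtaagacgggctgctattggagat

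The Y box letters, searched on both strands, stood within 150 bases of the start in 6.89% of the 21770 protein-coding genes, and the X box letters, chosen after the sequences had been seen, in 1.28%. H2-Aa, H2-Ab1, H2-Eb1 and H2-DMa all held the Y box letters, with the match beginning 50, 29, 33 and 41 bases before the start. The X box letters were in H2-Ab1, H2-Eb1 and H2-DMa and not in this window of H2-Aa. Among the other members examined, Tap1 held the Y box letters on the opposite strand, as CCAATCA, and Ciita, H2-K1, H2-D1, B2m and Nlrc5 held neither. Of the other H2-DM genes H2-DMb2 held both, at 43 and 71 bases, and H2-DMb1 held neither. A match of letters is a description of the sequence and not a measured binding site.

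The first comparison asked whether the presentation genes differed between the C3 nerve and its control. Of the 10 members, B2m alone was lower in C3 compared to WT-C3 and none was higher, by edgeR's quasi-likelihood test at an adjusted p under 0.05. Of all 13993 genes tested 23.9% passed, 11.4% lower and 12.5% higher. B2m had 403, 462, 533, 522 and 522 CPM in WT-C3 from 3 to 12 weeks and 227, 320.1, 310.1, 293 and 425 CPM in C3. The C3 library was the lower at 5 of 5 ages, while the groups overlapped because the 12-week C3 pool exceeded the 3-week WT-C3 pool. The means were 315 ± 71.4 CPM in C3 and 488 ± 55.5 CPM in WT-C3 (SD, n = 5). The fitted log2 fold change was -0.65 (SE 0.15, adjusted p = 0.0101). B2m kept this call when any 1 of the 10 libraries was left out, with log2 fold changes from -0.78 to -0.54.

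None of the 5 class II genes passed the threshold in C3, none had an unadjusted p under 0.05, and DESeq2 called none. Their log2 fold changes ran from -0.50 to 0.06 with a median of -0.35, beside 0.00 for all genes tested. H2-Aa, the I-A alpha chain, had 34.3, 52.9, 87.9, 107 and 94.2 CPM in WT-C3 and 12.5, 42.8, 56.8, 64.1 and 94.5 CPM in C3. The C3 pools were lower from 3 to 9 weeks and at the control level at 12 weeks, so that the spread within each group was wider than the difference (log2 fold change -0.50, SE 0.44, adjusted p = 0.446). With age as a block, H2-Aa became the only other member called in C3, with a log2 fold change of -0.63 (adjusted p = 0.0332). The pools of these groups were paired only by their age. Across all genes, and not for H2-Aa alone, their deviations from the group means correlated at 0.363, -0.226, 0.0845, 0.158 and 0.113. H2-Aa was higher at 12 than at 3 weeks in both groups, and the main fit, without age, counts that rise as spread.

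H2-Ab1, the I-A beta chain, had 29.0, 44.6, 87.4, 104 and 77.9 CPM in WT-C3 and 12.0, 43.0, 53.3, 73.2 and 81.1 CPM in C3. Cd74, the invariant chain, had 60.0, 87.7, 147, 122 and 137 CPM in WT-C3 and 21.8, 66.1, 89.8, 126 and 139 CPM in C3. H2-Eb1, the I-E beta chain, had 26.5, 41.4, 71.3, 102 and 83.5 CPM in WT-C3 and 11.3, 37.8, 47.1, 84.0 and 84.8 CPM in C3. The lowest library of each of these genes was the 3-week C3 pool, at less than the control pool of that age, while at 12 weeks the C3 pool was at or slightly above the control pool. The log2 fold changes were -0.43 for H2-Ab1, -0.35 for Cd74 and -0.35 for H2-Eb1, each smaller than its SE. Ciita, the class II coactivator, had 2.15, 3.01, 4.45, 4.01 and 4.15 CPM in WT-C3 and 1.06, 3.31, 3.97, 6.06 and 5.67 CPM in C3, with a log2 fold change of 0.06 (SE 0.40), whose sign turned under some alternatives.

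**Figure D1:**
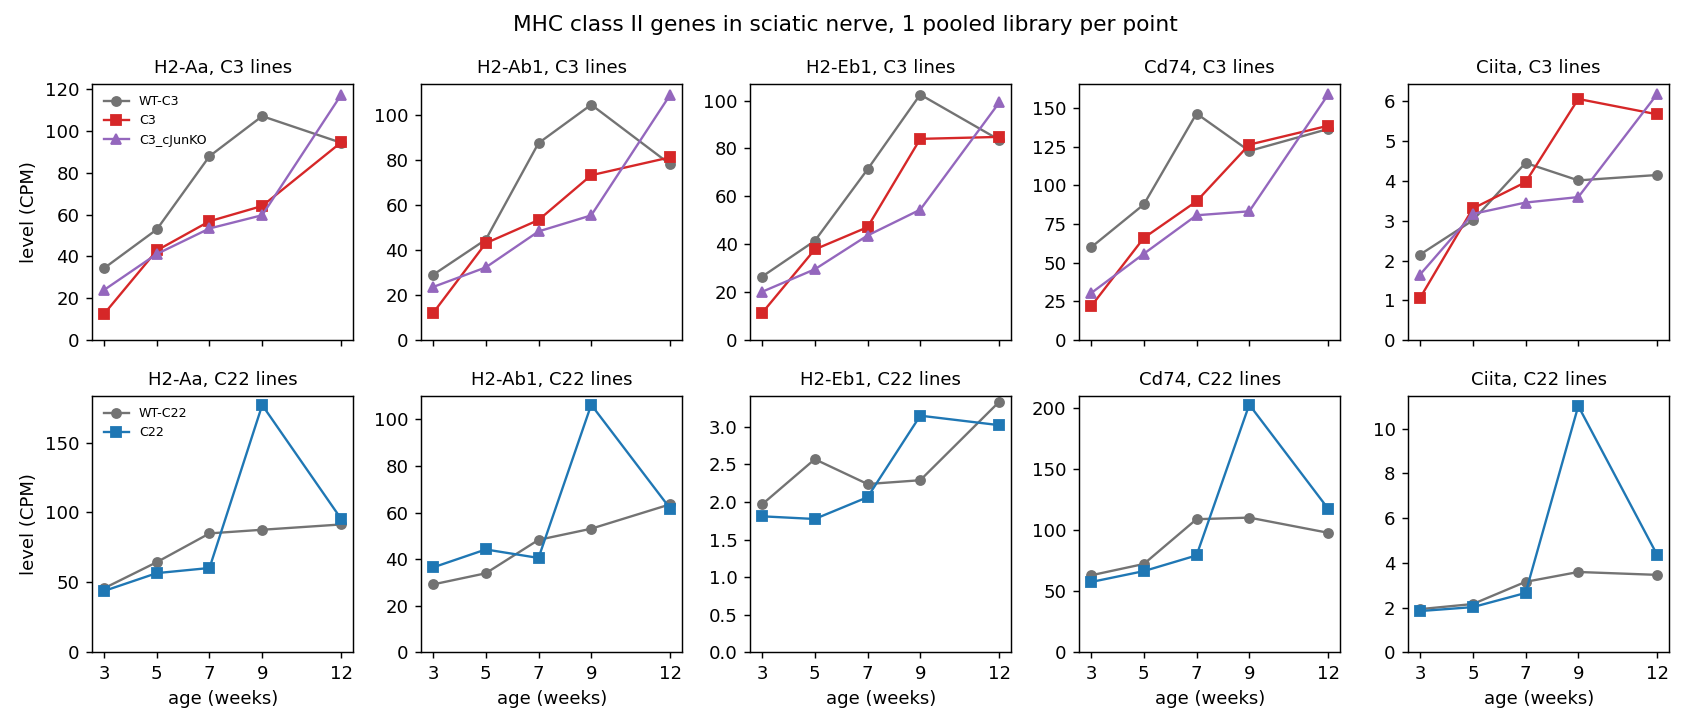
Levels in CPM (vertical axis, from 0) of the 5 class II genes against age in weeks (horizontal axis), with 1 pooled library per point; the upper row holds WT-C3, C3 and C3_cJunKO and the lower row WT-C22 and C22. H2-Aa goes from 12.5 to 94.5 CPM in C3 and from 34.3 to 94.2 CPM in WT-C3, and the 9-week C22 library has the highest H2-Aa of all, 177 CPM.

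The other class I genes did not pass the threshold in C3. H2-K1 had 264, 268, 394, 324 and 312 CPM in WT-C3 and 159.8, 283, 305, 236 and 359 CPM in C3, a log2 fold change of -0.23 (SE 0.19). H2-D1 had 302, 337, 481, 392 and 398 CPM in WT-C3 and 214, 402, 377, 343 and 438 CPM in C3, a log2 fold change of -0.12 (SE 0.18). The heavy chains were thus lower in C3 at 3 of 5 ages, whereas their light chain B2m was lower at all 5. Tap1, the transporter subunit, ranged from 18.6 to 24.8 CPM in WT-C3 and from 17.2 to 25.2 CPM in C3, and Nlrc5, the coactivator, from 5.83 to 8.66 and from 4.24 to 12.7 CPM. The log2 fold changes of Tap1 and Nlrc5 were -0.0010 and -0.01, and the direction of both turned with the scaling.

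In C22 compared to WT-C22, B2m was again the one member called lower, and no member was called higher. Here 42.4% of all genes tested passed, 20.5% lower and 21.9% higher. B2m had 237, 278, 318, 361 and 404 CPM in WT-C22 and 202, 215, 214, 307 and 236 CPM in C22, which was the lower at 5 of 5 ages while the groups overlapped. The means were 235 ± 41.9 CPM in C22 and 319.8 ± 66.0 CPM in WT-C22 (SD, n = 5). The fitted log2 fold change was -0.48 (SE 0.15, adjusted p = 0.0248). This call was less firm than that in C3. It was lost when the WT-C22 pool of 7, 9 or 12 weeks or the C22 pool of 3, 5 or 7 weeks was left out, with adjusted p from 0.0505 to 0.0691, and when counts were scaled by library size alone, with a log2 fold change of -0.31 (adjusted p = 0.143).

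None of the 5 class II genes passed the threshold in C22, with unadjusted p values that all exceeded 0.05, and DESeq2 called none. Their log2 fold changes ran from -0.10 to 0.57 with a median of 0.18. H2-Aa had 45.7, 64.4, 85.0, 87.6 and 91.4 CPM in WT-C22 and 43.8, 56.6, 60.3, 177 and 95.2 CPM in C22. Cd74 had 62.9, 72.1, 109, 110.03 and 97.6 CPM in WT-C22 and 57.4, 66.3, 79.1, 202 and 117 CPM in C22. The 9-week C22 pool was far above the other C22 pools for both genes, and it is the library with the B and T cell markers. Without it the log2 fold change of H2-Aa moved from 0.18 to -0.26 and that of Cd74 from 0.18 to -0.21, neither past the threshold.

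H2-Ab1 had 29.1, 33.9, 48.2, 53.0 and 63.5 CPM in WT-C22 and 36.4, 44.1, 40.5, 106 and 61.6 CPM in C22, a log2 fold change of 0.31 (SE 0.30) that became -0.03 without the 9-week C22 pool. Ciita had 1.93, 2.16, 3.15, 3.59 and 3.46 CPM in WT-C22 and 1.84, 2.02, 2.65, 11.0 and 4.34 CPM in C22. Its log2 fold change was 0.57 (SE 0.46) with that pool and -0.12 without it. H2-Eb1, at its low level, had 1.97, 2.57, 2.24, 2.29 and 3.33 CPM in WT-C22 and 1.81, 1.77, 2.06, 3.15 and 3.02 CPM in C22, a log2 fold change of -0.10 (SE 0.22). The B cell gene Ms4a1 had 4.21 CPM in the same library and the T cell gene Cd3e 3.33 CPM, where no other library exceeded 0.87 and 0.47 CPM. Ccr7, a homing receptor of lymphocytes and mature dendritic cells, had 2.38 CPM there and at most 0.22 CPM elsewhere. The part of these cells in the class II levels was not tested.

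For the class I heavy chains the C22 groups also overlapped. H2-K1 had 151, 201, 234, 277 and 387 CPM in WT-C22 and 145, 204, 209, 359.5 and 214 CPM in C22. H2-D1 had 549, 597, 948, 1146 and 1354 CPM in WT-C22 and 502, 736, 758, 1272 and 896 CPM in C22. Both were lower in C22 at 3 of 5 ages, with log2 fold changes of -0.17 (SE 0.26) and -0.17 (SE 0.28). Nlrc5 had 5.71, 6.68, 8.91, 9.35 and 10.7 CPM in WT-C22 and 3.37, 3.55, 7.11, 12.6 and 9.41 CPM in C22, a log2 fold change of -0.23 (SE 0.34), and that of Tap1 was 0.05 (SE 0.12).

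**Figure D2:**
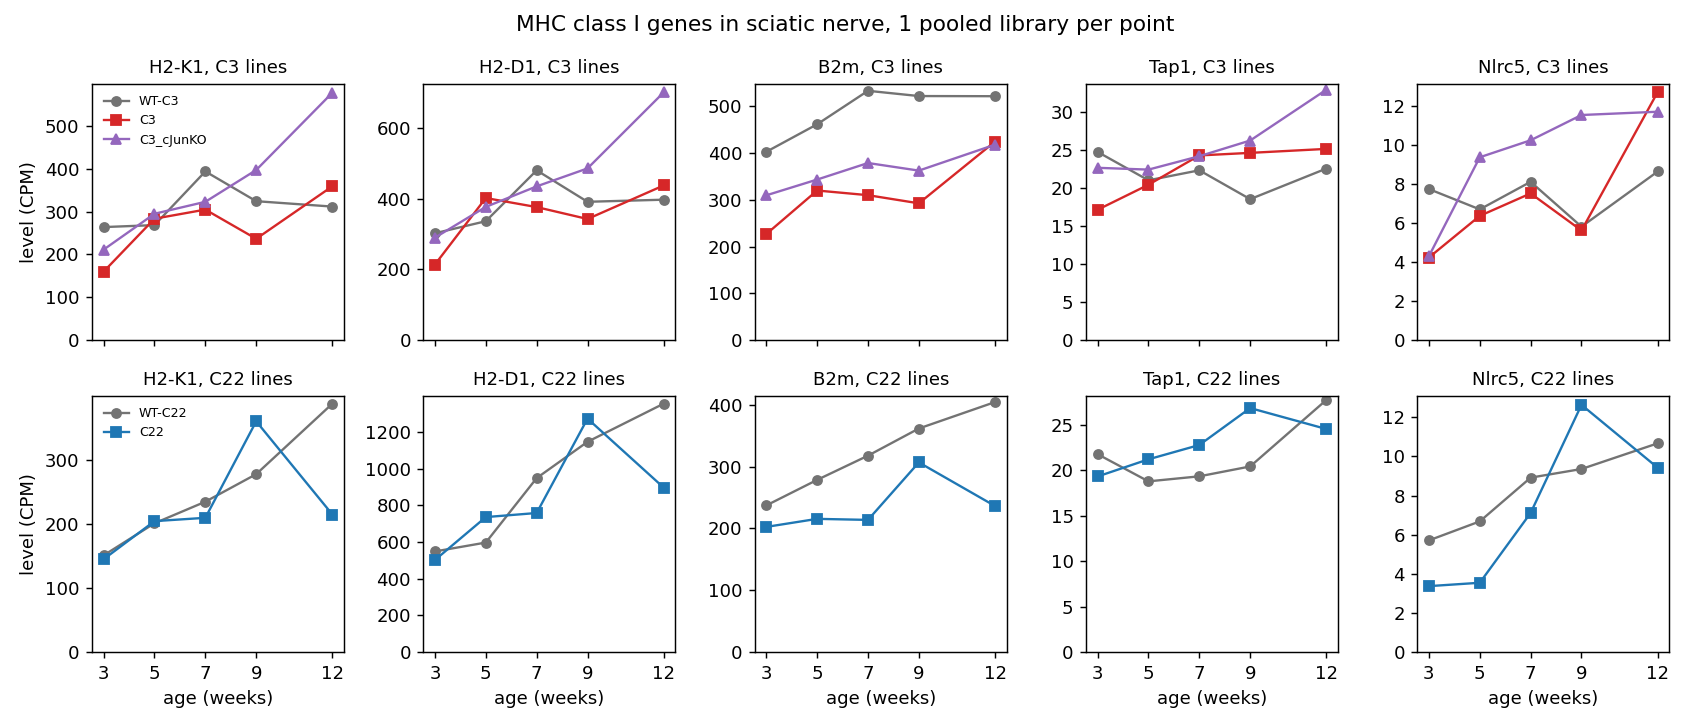
Levels in CPM (vertical axis, from 0) of the 5 class I genes against age in weeks (horizontal axis), with 1 pooled library per point, WT-C3, C3 and C3_cJunKO above and WT-C22 and C22 below. The B2m line of each transgenic group lies below that of its control at all 5 ages.

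The transgene line and the strain change together between C3 and C22, so the change in each model was taken within its strain and the difference of the changes was tested. No member passed, none had an unadjusted p under 0.05, and DESeq2 called none, where 12.1% of all genes tested passed, 7.31% with a lower and 4.75% with a higher value in C22. The smallest adjusted p was 0.504, for H2-Ab1, with a difference of 0.72 (SE 0.59). For B2m the change in C22 minus that in C3 was 0.16 (SE 0.22, adjusted p = 0.739). Without the 9-week libraries of C3 and C22, an alternative added after the data had been seen, no member passed either.

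The C3_cJunKO group asks what the loss of c-Jun in Schwann cells does to the C3 nerve. Its background strain is not given, so an effect of strain cannot be told apart from one of c-Jun loss. No member differed between C3_cJunKO and C3 (smallest adjusted p = 0.801), none had an unadjusted p under 0.05, and DESeq2 called none, where 0.55% of all genes tested passed, 0.222% higher and 0.329% lower. Across all genes, the deviations of same-age pools from their group means correlated at 0.123 to 0.616. With age as a block 273 genes in place of 77 were called, again with no member among them. H2-K1 had 211, 295, 323, 397 and 578 CPM in C3_cJunKO, above C3 at 5 of 5 ages, with a log2 fold change of 0.41 (SE 0.27). H2-D1 had 290.1, 377, 435, 486 and 702 CPM in C3_cJunKO and was above C3 at 4 of 5 ages (log2 fold change 0.36, SE 0.24). The 5 class I members had log2 fold changes from 0.19 to 0.41, and the 5 class II members from -0.11 to 0.13. H2-Aa had 23.9, 41.1, 53.3, 59.7 and 117 CPM in C3_cJunKO, within the range of C3 but for the 12-week pool.

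Compared to WT-C3, with which the C3 comparison shares its controls, C3_cJunKO again had B2m as the one member called lower and none called higher, where 21.5% of all genes tested passed, 11.3% lower and 10.3% higher. B2m had 309.8, 344, 379, 363 and 418 CPM in C3_cJunKO, lower than WT-C3 at 5 of 5 ages, with a log2 fold change of -0.46 (SE 0.11, adjusted p = 0.00905). The values of B2m against its control were therefore -0.65 in C3, -0.46 in C3_cJunKO and -0.48 in C22. H2-Aa, H2-Ab1, H2-Eb1 and Cd74 had log2 fold changes of -0.38, -0.38, -0.43 and -0.47 in C3_cJunKO against WT-C3, each lower at 4 of 5 ages and none past the threshold. Of the 5 class II genes 0 had an unadjusted p under 0.05 in this comparison, and DESeq2 called 0. With age as a block 2 of them passed, H2-Eb1 (-0.48, adjusted p = 0.0392) and Cd74 (-0.60, adjusted p = 0.0212). Both were higher at 12 than at 3 weeks in both groups, and the main fit, without age, counts that rise as spread. Across all genes, deviations of same-age pools from their group means correlated at 0.019 to 0.351. Nlrc5 had 4.31, 9.39, 10.3, 11.6 and 11.7 CPM in C3_cJunKO and passed only without the 3-week C3_cJunKO pool (log2 fold change 0.50, adjusted p = 0.0214), against 0.32 (SE 0.23) with it.

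**Figure D3:**
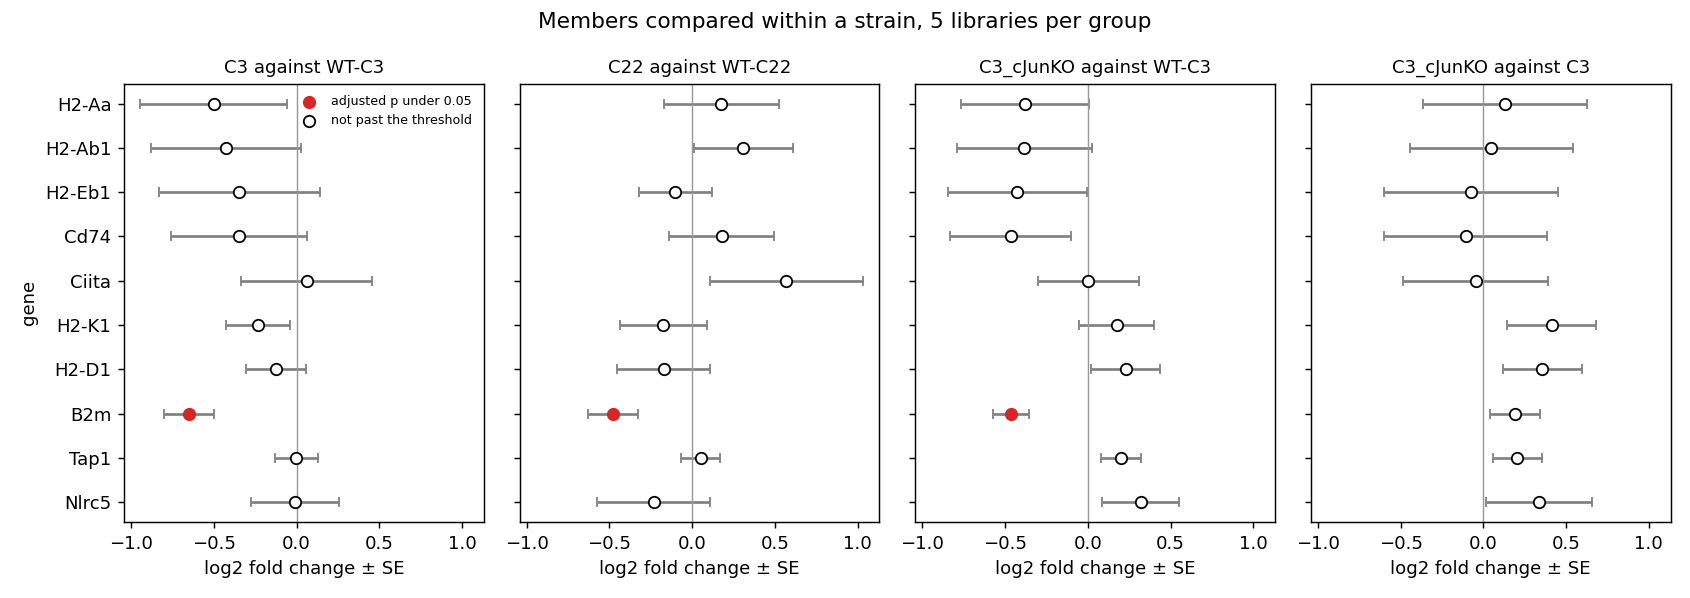
Log2 fold changes (horizontal axis) of the 10 members (vertical axis) in 4 comparisons within the C3 or the C22 lines, from edgeR with 5 libraries per group; bars are the SE, and filled points passed an adjusted p of 0.05. B2m is the one filled point in C3, C22 and C3_cJunKO against their controls, at -0.65, -0.48 and -0.46, and no point is filled in C3_cJunKO against C3.

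In all 4 comparisons of groups the CPM of every member overlapped between the groups. Among all genes tested, groups without overlap made up 9.99% higher and 7.46% lower in C3 and 17.4% higher and 13.4% lower in C22. The shares were 1.38% higher and 1.01% lower in C3_cJunKO against C3, and 10.1% higher and 6.97% lower against WT-C3. Some cell markers differed beside B2m. In C3 1 of 6 Schwann cell markers was lower and 1, Sox10, was higher, and of the 13 macrophage markers Cx3cr1 was higher and Cd163 lower. In C22 4 of 6 Schwann cell markers were lower and 2 higher, 3 of 5 endothelial markers were lower, and of the macrophage markers Cx3cr1 and Aif1 were higher and Mrc1 and Cd163 lower. The summed macrophage markers ran from 294 to 436 CPM in C3 and from 304 to 549 CPM in WT-C3, and from 337 to 493 CPM in C22 and from 349 to 542 CPM in WT-C22. Also in C22, 2 of 3 tested dendritic cell markers (Batf3 and Zbtb46) and 1 of 5 mast cell markers were higher and 1 of 5 fibroblast markers was lower. In C3_cJunKO against WT-C3 2 of 6 Schwann cell markers were higher and 1 was lower, 1 of 13 macrophage markers was higher and 2 were lower, and 3 of 4 red blood cell markers were lower, with a median log2 fold change of -2.09 for that list. The part of these markers in the B2m result was not tested.

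The levels of the members rose with age in the mean over the groups, but not each in every group. Tap1 had 24.8, 21.1, 22.4, 18.6 and 22.6 CPM in WT-C3 from 3 to 12 weeks, without a rise. In a linear fit of all 25 libraries, the slope with age averaged over the 5 groups was above 0 for all 10 members at an adjusted p under 0.05. Of the 15298 genes in this fit 29.2% passed in either direction and 15.8% rose. The mean slope was an addition made after the data had been seen. The 5 class II genes rose by 0.20 (H2-Aa, SE 0.03), 0.19 (H2-Ab1, SE 0.03), 0.19 (H2-Eb1, SE 0.02), 0.18 (Cd74, SE 0.03) and 0.17 (Ciita, SE 0.03) log2 units per week. Their adjusted p values lay between 5.99e-06 and 0.000827.

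The mean slopes of the class I genes had lower values. They were 0.12 for Nlrc5 (SE 0.02), 0.11 for H2-D1 (SE 0.02), 0.10 for H2-K1 (SE 0.02), 0.060 for B2m (SE 0.0097) and 0.040 for Tap1 (SE 0.0090) log2 units per week. Each of the 10 members kept its rise when any 1 of the 25 libraries was left out. The lowest slope then ran from 0.030 for Tap1, with an adjusted p of at most 0.0237, to 0.17 for H2-Aa. Between 3 and 12 weeks H2-Aa increased 2.75-fold in WT-C3, 7.57-fold in C3, 4.90-fold in C3_cJunKO, 2.00-fold in WT-C22 and 2.17-fold in C22, as ratios of single pools. Cd74 increased 2.28-fold, 6.35-fold, 5.24-fold, 1.55-fold and 2.04-fold in the same order.

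Within single groups fewer members passed. By a natural spline of age, the fit used in the study, H2-Eb1 changed with age in WT-C3, which makes 1 of 10 members beside 0.693% of all genes. In C3 5 of 10 changed (H2-Aa, H2-Ab1, H2-Eb1, Cd74 and Nlrc5) beside 2.27% of all genes. In C3_cJunKO 7 of 10 changed, those of C3 and in addition H2-K1 and H2-D1, beside 3.38%. In WT-C22 H2-D1 changed, beside 2.86%, and in C22 4 of 10 changed (H2-Aa, Cd74, Ciita and Nlrc5) beside 0.752%. These 4 all had their highest C22 level in the 9-week pool with the B and T cell markers, and the spline was not run without it. In C22 a spline of 2 degrees of freedom called 0 members, beside 0.431% of all genes, and the log2 CPM filter 1, beside 0.379%. With a linear slope the counts of members were 1, 6, 7, 3 and 1 in WT-C3, C3, C3_cJunKO, WT-C22 and C22, beside 2.62%, 5.96%, 5.97%, 7.77% and 0.784% of all genes. Leaving out single pools changed these counts and, along with them, the share of all genes that passed. Without the 3-week pool the linear count of members was 0 in C3, beside 0.464% of all genes, and 1 in C3_cJunKO, beside 1.14%. Without the 12-week pool it was 3 in C3, beside 2.09%, and 0 in C3_cJunKO, beside 0.706%. In C22 it was 6 without the 12-week pool, beside 3.06%, and 0 without the pool of 3, 5 or 9 weeks, beside at most 0.391%. The count was also 0 in WT-C3 without the pool of 3, 5 or 9 weeks, beside at most 2.06%, and in WT-C22 without that of 3 or 12 weeks, beside 1.40% and 0.796%.

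The slopes of a model and its control were not shown to differ. H2-Aa had a slope of 0.27 in C3 and 0.17 in WT-C3, and Cd74 of 0.27 and 0.12. For the 4 pairs of groups no member passed a test of the difference of slopes, with a smallest adjusted p of 0.463 (edgeR, quasi-likelihood). At an unadjusted p under 0.05 there were 2 members in C3 against WT-C3 (Tap1 and Nlrc5) and 2 in C3_cJunKO against WT-C3 (Tap1 and H2-K1). All of these had the lower slope in WT-C3. There were 0 in the other pairs. Of all genes 0.0196% passed in C3 against WT-C3, 0.464% in C22 against WT-C22 and 0.00654% in each of the other pairs.

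**Figure D4:**
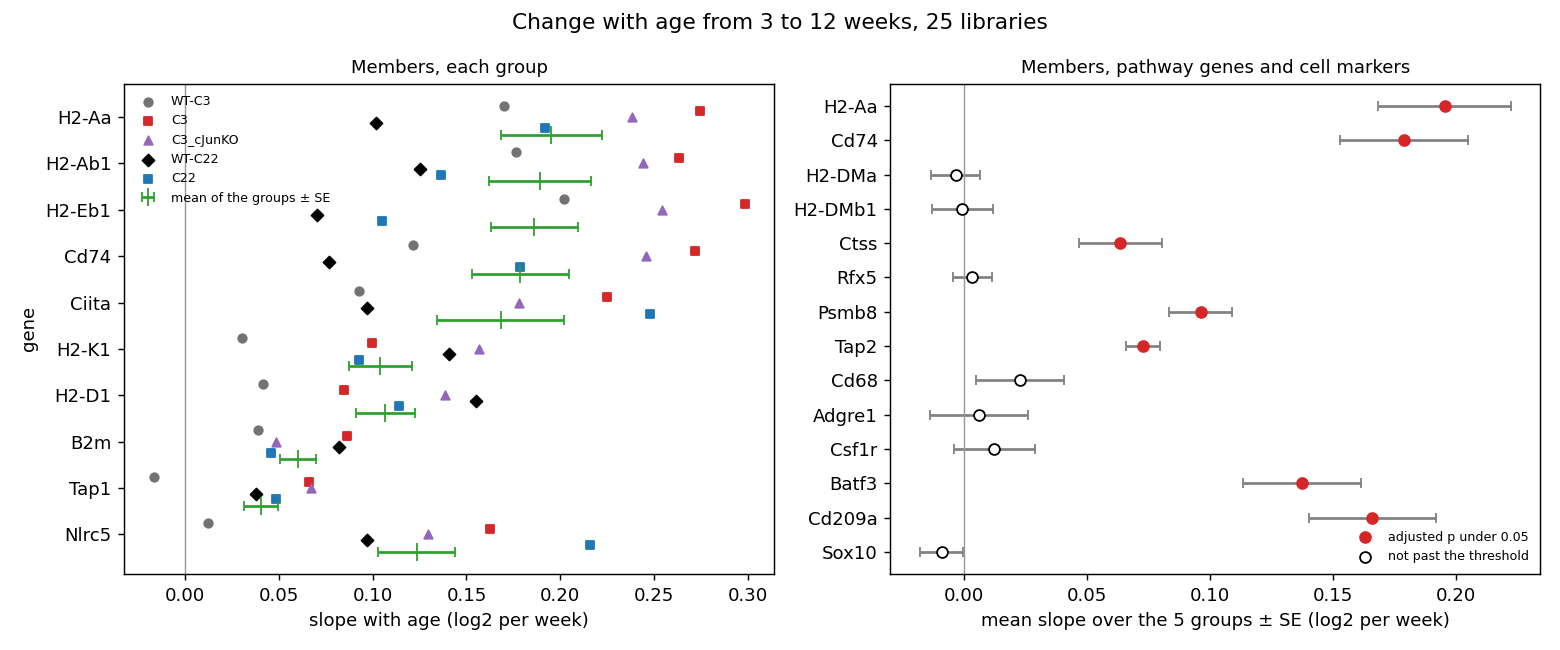
Slopes with age in log2 units per week (horizontal axes) for the 10 members in each group with the mean of the groups and its SE (left), and for chosen members, pathway genes and cell markers as the mean over the 5 groups with its SE (right), where filled points passed an adjusted p of 0.05. The class II genes lie between 0.17 and 0.20 on the left. Of the chosen genes on the right H2-DMa, H2-DMb1 and Rfx5 lie near 0, while H2-Ob and H2-DMb2 are not shown.

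Most genes that serve the class I pathway rose as well. Of the 12 listed genes of class I loading and the immunoproteasome 8 rose with age and 1 fell in the mean over the groups. Tap2, the partner of Tap1 in the transporter, rose by 0.073 (SE 0.0069), and the immunoproteasome subunits Psmb8 and Psmb9 by 0.096 (SE 0.013) and 0.097 (SE 0.012) log2 units per week. Canx, a chaperone of the endoplasmic reticulum, fell by 0.026 (SE 0.0078). Of the 9 nonclassical class I genes 7 rose, among them H2-Q6 by 0.22 and H2-Q4 by 0.10. Of the 9 tested genes of the interferon gamma signal 4 rose, among them Irf1 by 0.055, and 1 fell, while Ifng itself had at most 0.0787 CPM in any library. Of the 5 tested costimulation genes Cd274 and Icosl rose, by 0.11 and 0.054.

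Most class II loading genes did not pass the test for age. H2-DMa, which encodes the alpha chain of the molecule that exchanges the invariant chain peptide for others, had a mean slope of -0.0032 (SE 0.0099, adjusted p = 0.851), and H2-DMb1, its beta chain, of -0.00047 (SE 0.012, adjusted p = 0.985). Of the 9 tested genes of class II loading and proteolysis Ctss, the cathepsin that cuts the invariant chain, rose (0.064, SE 0.017), and Ifi30, a thiol reductase of the endosome, fell (-0.055, SE 0.011). In this list 4 genes had an unadjusted p under 0.05. H2-Ob and H2-DMb2 had mean slopes of 0.099 (SE 0.041) and 0.063 (SE 0.033), neither past the threshold. Of the 7 genes for the factors that bind the class II promoter none passed for age, and none had an unadjusted p under 0.05.

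Cell markers moved with age too. Of the 13 macrophage markers none passed with a rise and Cx3cr1 fell, while 4 had an unadjusted p under 0.05. The mean slopes of the list ran from -0.051 for Cx3cr1 to 0.066 for Itgam (SE 0.029, adjusted p = 0.0998), with a median of 0.023. Cd163 had a mean slope of 0.055 (SE 0.025), Lyve1 of 0.051 (SE 0.024), Cd68 of 0.023 (SE 0.018) and Adgre1 of 0.0064 (SE 0.020). Of the 4 tested dendritic cell markers Cd209a (0.17, SE 0.03), Batf3 (0.14, SE 0.02) and Itgax (0.13, SE 0.04) rose and Zbtb46 fell. The 5 adipocyte and 5 mast cell markers all rose, 4 of 5 endothelial markers rose, and 3 of 6 Schwann cell markers fell. Of the 5 fibroblast markers 1 rose and 3 fell, and of the 4 muscle and 4 red blood cell markers tested none passed. The 3 NK cell markers summed to at most 3.04 CPM in any library. The part of these cells in the rise of the members was not tested.

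In C22 the genes of the H2-DM molecule had larger log2 fold changes than any member. H2-DMa (ENSMUSG00000037649, chr17:34338515-34358958) had 91.1, 86.9, 76.3, 97.1 and 79.9 CPM in WT-C3 and 59.0, 71.9, 69.6, 54.1 and 56.8 CPM in C3, lower at 5 of 5 ages and without overlap (log2 fold change -0.48, SE 0.09, adjusted p = 0.00302). In the C22 lines it had 116, 86.4, 88.6, 90.5 and 83.5 CPM in WT-C22 and 19.3, 26.9, 23.1, 31.0 and 33.9 CPM in C22 (log2 fold change -1.82, SE 0.15, adjusted p = 3.52e-06). The decrease was greater in C22 than in C3, with a difference of -1.36 (SE 0.18, adjusted p = 4.29e-05). In C3_cJunKO against WT-C3 the log2 fold change was -0.67 (SE 0.11, adjusted p = 0.000918).

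H2-DMb1 (chr17:34372046-34379204) had 37.8 to 48.8 CPM in WT-C22 and 6.92 to 18.6 CPM in C22 (log2 fold change -1.75, SE 0.21, adjusted p = 5.42e-05). In the C3 lines its levels overlapped, with 96.6 to 144 CPM in WT-C3 and 77.9 to 113 CPM in C3. The difference of the changes was -1.44 (SE 0.25, adjusted p = 0.000682). H2-DMb2, a close copy of H2-DMb1, had 9.99 to 15.6 CPM in WT-C22 and 3.10 to 7.43 CPM in C22 (log2 fold change -1.38, SE 0.24), but no more than 1.69 CPM in any library of C3 and WT-C3, so that its difference of the changes of -2.02 (SE 0.53, adjusted p = 0.0154) rests on low levels on the C3 side. Reads of the 2 copies may be split by the counting. The lowest C22 level of H2-DMa and H2-DMb1 was at 3 weeks, and neither had its highest C22 level in the 9-week pool with the lymphocyte markers.

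**Figure D5:**
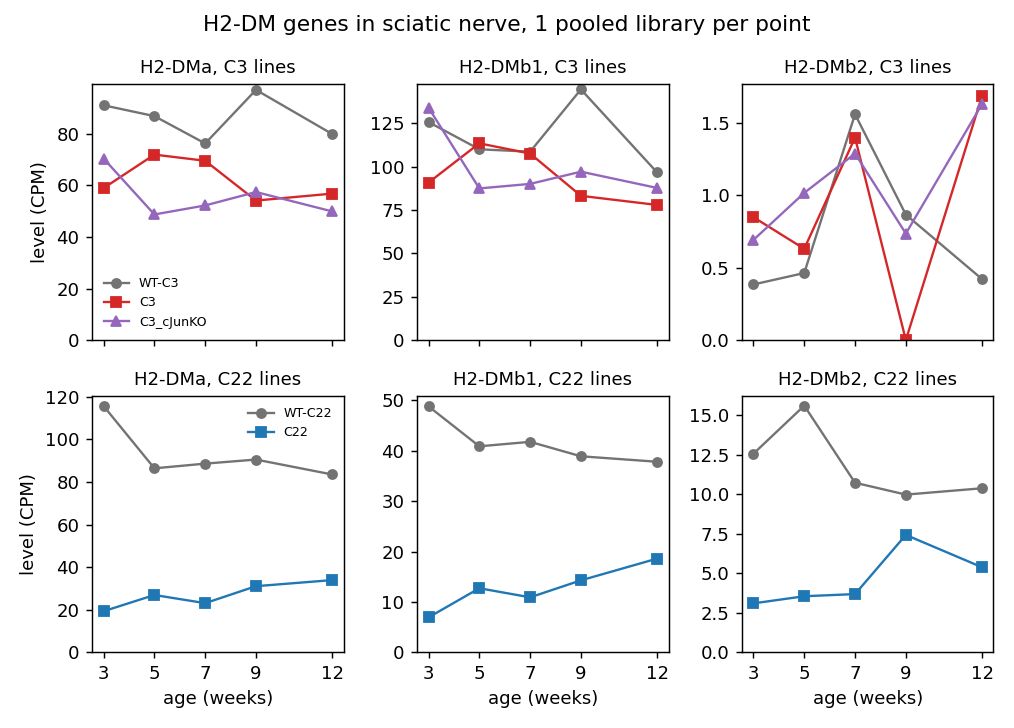
Levels in CPM (vertical axis, from 0) of H2-DMa, H2-DMb1 and H2-DMb2 against age in weeks (horizontal axis), with 1 pooled library per point, WT-C3, C3 and C3_cJunKO above and WT-C22 and C22 below. All C22 points of the 3 genes lie below all WT-C22 points, with H2-DMa at 19.3 to 33.9 against 83.5 to 116 CPM.

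Of the 8 tested genes of class II loading and proteolysis 3 were lower in C3 and 4 in C22, and none was higher, where 11.4% and 20.5% of all genes were lower and 23.9% and 42.4% passed in either direction. The median log2 fold changes of the list were -0.20 and -0.34. Sppl2a, the membrane protease that removes the last fragment of the invariant chain, was lower in C3 (-0.44, SE 0.10), in C22 (-0.46, SE 0.07) and in C3_cJunKO against WT-C3 (-0.39, SE 0.09). Ctsl, another cathepsin, was lower in C3 (-0.33, adjusted p = 0.0483) and in C3_cJunKO (-0.32), but the call in C3 was lost when any library but the 5-week WT-C3 or the 12-week C3 pool was left out, and that in C3_cJunKO without the WT-C3 pool of 3, 7 or 12 weeks or the C3_cJunKO pool of 5, 7 or 9 weeks.

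Of the 7 genes for the factors that bind the class II promoter 4 were higher and 1 lower in C3 and 4 higher in C22, where 12.5% and 21.9% of all genes were higher and 23.9% and 42.4% passed in either direction. The median log2 fold changes of the list were 0.21 and 0.33. Rfx5, a subunit of the factor that binds the X box, was higher in C3 (0.30, adjusted p = 0.0353) and in C22 (0.47, adjusted p = 0.000454). The call in C3 was lost without any pool but the WT-C3 pools of 5 and 7 weeks and the C3 pool of 9 weeks. Its partner Rfxank was higher in C3 (0.43), where the call was lost without the WT-C3 pool of 7 or 9 weeks, and in C22 (0.43). Of the subunits of NF-Y, which binds the Y box, Nfyc was higher in both (0.35 and 0.33) and Nfya in C22 (0.51). Nfya was also higher in C3 (0.21), with the largest adjusted p of the genes of this list called there. How that call depends on single pools is not reported here. Nfyb was lower in C3 (-0.41), which was lost without the WT-C3 pool of 3, 9 or 12 weeks or the C3 pool of 5 or 7 weeks. In C3_cJunKO against WT-C3 Nfyc and Rfx5 were higher and Nfyb and Rfxap lower. The call of Rfxap (-0.26, adjusted p = 0.0215) was lost without the WT-C3 pool of 5 or 7 weeks, with age as a block (adjusted p = 0.0502), in 1 fit of all libraries (adjusted p = 0.0561), without a filter on low counts (-0.22, adjusted p = 0.178) and with library size only (-0.17, adjusted p = 0.153).

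Among the genes of the class I side, Mr1, which presents vitamin metabolites to T cells, was higher in C3 (0.31, SE 0.08), in C22 (0.45, SE 0.07) and in C3_cJunKO against WT-C3 (0.44, SE 0.07). In C22 the chaperone Pdia3 and the immunoproteasome subunit Psmb10 were higher (0.38 and 0.37), and Canx and the nonclassical gene H2-T24 were lower (-0.27 and -0.48). The call of Canx was lost without the 12-week C22 pool (-0.25, adjusted p = 0.0514) and with library size only (-0.10, adjusted p = 0.277). None of the 12 genes of class I loading passed in C3, while 3 had an unadjusted p under 0.05 and DESeq2 called 3. Of the 9 tested genes of the interferon gamma signal 2 were higher and 2 lower in C22, where 42.4% of all genes passed. In C3_cJunKO against WT-C3 2 were higher and 0 lower, where 21.5% of all genes passed. In C3 none passed, where 23.9% of all genes did, while 3 had an unadjusted p under 0.05 and DESeq2 called 1. Irf1, a transcription factor of this list induced by interferon gamma, passed in none of these comparisons, and neither did Ciita or Nlrc5. In C3_cJunKO against C3 none of the 6 pathway lists had a gene past the threshold or with an unadjusted p under 0.05, and DESeq2 called none.

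Within WT-C3 the order of the members per kilobase of annotated exon was B2m (232 ± 26.3 CPM per kb), H2-D1 (128 ± 22.7), H2-K1 (98.0 ± 16.5), Cd74 (44.0 ± 14.3), H2-Ab1 (26.7 ± 12.1), H2-Eb1 (25.1 ± 11.9), H2-Aa (17.5 ± 7.09), Tap1 (3.64 ± 0.38), Nlrc5 (0.87 ± 0.13) and Ciita (0.32 ± 0.086, SD, n = 5 ages). The ranges of mean ± SD overlapped between H2-D1 and H2-K1 and between the neighbours Cd74, H2-Ab1, H2-Eb1 and H2-Aa. The exon length counts every annotated transcript, which understates the level of genes with long rare transcripts. The coactivators Ciita and Nlrc5 were thus the members with the lowest levels.

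The patterns of the members were compared with those of 11728 other genes of at least 5 CPM, as log2 CPM over the 20 libraries of both models and their controls after subtraction of the mean in the control of the strain. The genes most like the mean of H2-Aa, H2-Ab1, H2-Eb1 and Cd74 were Tmt1a, Bhlhe41, Cfd, Comp and Gpx3, with root mean square differences from 0.34 to 0.39. The members of that mean lay at 0.12 to 0.22, but each of them enters the mean, which by itself brings it closer. The genes most like the mean of H2-K1, H2-D1 and B2m were Adh1, Gstz1, Mpp1, Svep1 and 1600014C10Rik, at 0.11 to 0.15. The members of this mean, which enter it in the same way, lay at 0.099 to 0.22. No gene of the lists fixed here was among these most similar genes but Cfd, one of the adipocyte markers.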

How the data were processed

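Sciatic nerve RNA of 25 libraries was poly(A) enriched and sequenced with a kit that marks strand. Per the paper and the submitters' processing notes, the authors trimmed reads with cutadapt 2.10, aligned them with STAR 2.7.5a to GRCm39 with the human transgene locus of GRCh38 added, removed duplicates with UMI-tools 1.1.1 and counted fragments on genes with HTSeq 0.12.4. The deposited values are raw counts without normalization, and the authors' table holds 56956 genes and 5 groups of 5 libraries. Between 8.12% and 12.1% of fragments per library fell outside genes, and 2.76% to 3.93% had several alignments. Reads from near-identical H2 copies or from other haplotypes may be missing.

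The tests used edgeR 4.0.16 under R 4.3.3: TMM scaling among the libraries compared, a quasi-likelihood fit on group, genes with log2 CPM above 1 in at least 7 libraries (25%), and Benjamini-Hochberg adjustment over all genes with a threshold of 0.05. Age was tested in 1 fit of all libraries by a natural spline (3 degrees of freedom) and by a linear slope, over the 15298 genes kept by filterByExpr. The p-values of the group fits measure the spread between pools of 5 different ages, which holds the effect of age as well. The alternatives tried were DESeq2 1.42.0, scaling by median-ratio factors or by library size only, 2 other filters, 1 fit of all libraries, age as a block, and each library left out. No main fit took age as a block. Across genes, deviations of same-age pools from their group means correlated positively for C3_cJunKO against C3 (0.439, 0.123, 0.347, 0.265 and 0.616). They did so too, but weakly at 7 weeks, for C3_cJunKO against WT-C3 (0.314, 0.240, 0.019, 0.351 and 0.130). For C3 against WT-C3 the value at 5 weeks was -0.226, and for C22 against WT-C22 that at 12 weeks was -0.150. The scripts were tested on simulated data.

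Symbols came from GENCODE M39 and matched 56296 of 56941 mouse genes. The text names all 10 members, up to 4 genes past the threshold from each of 6 pathway lists per comparison, the 5 genes most like each class (log2 of CPM plus 0.1), and the markers of 12 cell types, with examples from the lists for age. Some genes that these rules name are not reported here. The members and lists were chosen with earlier results of these data known.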

Additional observations from a re-analysis of the deposited data

Results flagged for a closer look

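A single pool stood apart within its group of 5 in 3 of the 65 groups examined, judged by its gap to the nearest pool relative to the range of the group, where chance gives about 1 in 20. Ciita had 11.0 CPM in the 9-week C22 pool, and the next highest C22 pool had 4.34 CPM. This is the pool with the B and T cell markers. H2-DMa had 116 CPM in the 3-week WT-C22 pool against 90.5 CPM in the next. H2-DMb1 had 134 CPM in the 3-week C3_cJunKO pool against 97.0 CPM in the next.

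The change in C22 differed from that in C3 for the following pathway genes by a test of the difference itself. On the log2 scale the difference was -1.36 for H2-DMa, -1.44 for H2-DMb1 and -2.02 for H2-DMb2, the last with at most 1.69 CPM in C3 and WT-C3. It was 0.28 for Nfya, which was lost without the WT-C3 pool of 7 or 12 weeks, the C3 pool of 5 or 7, the WT-C22 pool of 9 or 12 or the C22 pool of 3 or 9 weeks. Strain and transgene line change together in this test and cannot be told apart.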

How the results depend on the processing

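Each member had at least 13 counts in every library. In the shallow 9-week C3 library Nlrc5 had 13 counts and Ciita 14. How far depth limited the members was not tested, and with 1 pool per age the n of each group was 5 ages. Among single genes, 605 values under alternatives other than a left-out library kept direction and call, 19 lost the call, 3 gained it and 13 reversed; with a library left out the numbers were 1187, 54, 1 and 58. The cause was not tested for any of them.

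With age as a replicate block, 2 members were called in C3 against WT-C3 and 3 in C3_cJunKO against WT-C3, Ciita turned to -0.015 and -0.057 in these comparisons, and the block changed no other count of members. Among all genes, 77 were called in C3_cJunKO against C3. The number was 273 under the block, 250 by DESeq2, 134 without a filter and 139 in 1 fit of all libraries. With library size only, 0 members were called in C22 against WT-C22, and values turned to 0.079 for Tap1 and 0.068 for Nlrc5 in C3, 0.071 for H2-Eb1 in C22 and 0.043 for H2-D1 in the difference of C22 and C3. Without a filter Tap1 was 0.020 and Nlrc5 0.0085 in C3, and with filterByExpr Tap1 was 0.010. Ciita in C3_cJunKO against WT-C3 was -0.0013 with median-ratio factors and -0.0058 by DESeq2. Without the 9-week libraries of C3 and C22 the difference was -0.050 for Ciita and -0.18 for H2-K1. For age, a linear slope called 3 members in WT-C22 and 1 in C22, a spline of 2 degrees of freedom 2 and 0, and the log2 CPM filter 1 in C22.

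Leaving out each library gave 0 to 1 members in C22 and 1 to 2 in C3_cJunKO against WT-C3. Linear slopes, the only age fit run with a library left out, gave 0 to 1 in WT-C3, 0 to 6 in C3, 0 to 6 in C3_cJunKO, 0 to 3 in WT-C22 and 0 to 6 in C22. Log2 fold changes that reversed ranged as follows. In C3 they ran from -0.19 to 0.35 for Ciita, -0.21 to 0.027 for H2-D1, -0.058 to 0.098 for Tap1 and -0.33 to 0.16 for Nlrc5. In C22 they ran from -0.26 to 0.34 for H2-Aa, -0.030 to 0.46 for H2-Ab1, -0.23 to 0.041 for H2-Eb1, -0.21 to 0.33 for Cd74, -0.12 to 0.77 for Ciita, -0.40 to 0.037 for H2-K1, -0.37 to 0.010 for H2-D1 and -0.011 to 0.15 for Tap1. In C3_cJunKO against C3 they ran from -0.29 to 0.47 for H2-Aa, -0.39 to 0.31 for H2-Ab1, -0.50 to 0.22 for H2-Eb1, -0.50 to 0.14 for Cd74 and -0.34 to 0.21 for Ciita. Against WT-C3 they ran from -0.28 to 0.18 for Ciita and -0.066 to 0.32 for H2-K1. In the difference of C22 and C3 they ran from -0.052 to 0.54 for H2-Eb1, -0.19 to 0.78 for Ciita, -0.18 to 0.25 for H2-K1, -0.26 to 0.11 for H2-D1, -0.055 to 0.14 for Tap1 and -0.53 to 0.11 for Nlrc5.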
